A study of Mus musculus with 14 samples.

Results

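Igfbp4, Dapl1, Satb1, Bach2, Actn1, Id3 and Foxp1 are 7 genes whose mRNA is known to be plentiful in naive or resting T-cells. Their levels were compared between CD4+ T-cells of Roquin san/+ mice and of wild-type mice. A probe was taken as a member when the gene name printed on the array was 1 of these 7 names. This gave 19 of the 56605 probes and 7 of the 36870 gene names. RNA from CD4+ T-cells was hybridised to 14 one-colour arrays, 7 labelled Roquin san/+ and 7 labelled wild-type, with the replicates of each genotype lettered A to G. Roquin san/+ mice carry 1 copy of the sanroque allele of Rc3h1, the gene of the RNA-binding protein Roquin, and wild-type mice carry none. The labels give no treatment, age or strain, and they do not say how the cells were sorted or whether each array was a separate mouse. The p-values therefore measure the spread between these arrays. The sanroque allele is a point change in the protein, so the Rc3h1 probe does not check the labels.

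Naive T-cells are kept in a resting state by transcription factors and by brakes on translation and on the cell cycle. Once the T-cell receptor is engaged, the mRNAs of this programme are lost and those of effector factors take over. Foxp1 and Bach2 encode repressors that hold naive T-cells back from activation and effector fates, Id3 encodes an inhibitor of E-protein transcription factors, and Satb1 encodes an organiser of chromatin loops in T-cells. Igfbp4 encodes a secreted protein that binds insulin-like growth factors, Actn1 encodes an alpha-actinin that cross-links actin filaments, and Dapl1 encodes a small protein related to the death-associated protein Dap.

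The probes are 60 bases long, and positions are those of the array design on mouse build mm9. Dapl1 and Id3 each had a single probe. Igfbp4 and Actn1 had 2 probes each, Bach2 had 3, and Satb1 and Foxp1 had 5 each. The probes printed here are those on which whole genes rest (Dapl1, Id3) and 1 further probe each of Igfbp4, Actn1 and Foxp1 that is set beside the brighter probe of its gene in the results, all 5′ to 3′.
Dapl1 A_51_P391955 (chr2:59342824-59342883, plus strand): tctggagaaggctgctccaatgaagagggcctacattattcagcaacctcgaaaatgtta
Id3 A_51_P380178 (chr4:135700075-135700249, plus strand): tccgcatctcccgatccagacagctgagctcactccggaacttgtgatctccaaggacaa
Igfbp4 A_51_P398971 (chr11:98909591-98909650, plus strand): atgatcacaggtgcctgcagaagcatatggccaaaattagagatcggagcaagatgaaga
Actn1 A_51_P347862 (chr12:81269446-81269882, minus strand): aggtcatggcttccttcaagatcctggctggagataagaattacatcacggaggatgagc
Foxp1 A_55_P2105452 (chr6:99112925-99112984, minus strand): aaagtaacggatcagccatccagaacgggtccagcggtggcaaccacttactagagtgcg
The Id3 probe covers 175 bases of genome and this Actn1 probe covers 437, so both cross at least 1 splice junction. An mm9 gene annotation was not used here, so the exon of each probe is not given.

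Levels are log2 processed signals relative to the 75th percentile of the array, so a level of 0 equals that percentile. The spots of replicate G of Roquin san/+ and of replicate E of wild-type had been read 2 grid rows off their probe names, and were moved back before any comparison. Both arrays kept lowest signals of 223 and 106, against 2.13 to 7.34 on the other 12 arrays. Of those 12 arrays, Roquin san/+ replicate C was the dimmest, with a 75th percentile over all probes of 84.6 units against 305 to 695 units. All 6 CD4+ T-cell markers (Cd3d, Cd3e, Cd3g, Cd4, Cd28, Lck) were well above background on each of the 12 arrays. The summed level of 6 B-cell markers was 18.9 on Roquin san/+ replicate F and 0.376 to 1.87 on the other Roquin san/+ arrays. On the wild-type arrays it was 0.205 to 4.81, highest on replicate B, which is kept. Roquin san/+ replicates C, F and G and wild-type replicate E are called the arrays that stand apart, and results are given with and without them. The slides held unequal shares of the genotypes. Slide 1 carried 5 arrays of Roquin san/+ and 2 of wild-type, and slide 2 carried the reverse.

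The members tended to lie lower on the Roquin san/+ arrays, with Dapl1 the furthest, but no member passed the test. Of the 19 probes, 14 passed the filter on dim probes, and 12 of these had a lower mean in Roquin san/+ while 2 had a higher mean. The share of lower means over all 12864 probes tested was 50.4%. The median difference in log2 level was -0.35 over the 14 member probes and -0.00 over all probes tested. Of the 12 lower probes, Igfbp4 A_51_P398971 passed the filter through wild-type alone, the genotype in which it was higher. With the filter set to both genotypes, 11 of 13 member probes were lower, with a median of -0.33, against 52.9% of 10320 probes. With 1 probe a gene, 6 of the 7 members were lower, with a median of -0.37. By limma with Benjamini-Hochberg adjustment, 0 of the 14 member probes had an adjusted p under 0.05, and the share over all probes was 0%. At an unadjusted limma p under 0.05, 0 of the 14 passed, against 4.06% of all probes. The genotypes overlapped for all 19 probes, including those that missed the filter. The share of overlapping probes over the whole array is not given here.

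The direction of the list held when any 1 array was left out, with 10 to 14 of the 14 member probes lower. It did not hold without the 4 arrays that stand apart, a set chosen after seeing the data. Those 4 include Roquin san/+ replicates C, F and G, the lowest of their genotype for Dapl1, Igfbp4 and Actn1. Wild-type replicate C, low as well, is kept. Without the 4 arrays that stand apart, 5 of the 14 member probes were lower in Roquin san/+, which is 35.7% against 46.4% of all probes. The median difference was then 0.04 against 0.02 over all probes. Roquin san/+ replicate C was the lowest of its group for 5 of the 7 members, and wild-type replicate C was the lowest of its group for 6 of the 7. With that wild-type array left out, 14 of the 14 member probes were lower (median -0.42), against 55.4% of all probes. Without both displaced arrays, 14 of 18 were lower, against 40.1% of all probes. Without wild-type replicate C, 4 member probes had an unadjusted limma p under 0.05, against 2.91% of all probes. These were Dapl1 A_51_P391955 and Satb1 A_51_P324228, A_55_P2719324 and A_65_P16561, with limma adjusted p-values of 0.9997. Under other scalings the balance of all probes also moved. With the 75th percentile taken over all probes the median of all probes was -0.17, 77% of them were lower in Roquin san/+, and 14 of the 14 member probes were lower. Quantile normalization gave 14 of 14 against 63.4%, the authors' log2 values gave 14 of 14 against 60.5%, and normexp background correction gave 12 of 14 against 41.8% of all probes. With normexp and without both displaced arrays, 9 of 18 were lower against 21.2% of all probes, with a median of -0.01 over the member probes.

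Among the 3 members that encode no nuclear factor (Dapl1, Igfbp4, Actn1), and among all 7, Dapl1 had the largest difference. On the Roquin san/+ arrays its log2 level was -1.84 at the lowest, -0.02 at the median and 0.46 at the highest, with a mean of -0.59 ± 1.04 (SD, n = 7). On the wild-type arrays it was -0.49, 0.30 and 0.87, with a mean of 0.24 ± 0.52 (SD, n = 7). Replicates C, F and G of Roquin san/+ lay at -1.84, -1.82 and -1.39, below every wild-type array, and the other 4 lay among the wild-type arrays. The difference was -0.83 (95% interval -1.68 to 0.03), a level 0.564 times that of wild-type, with a limma adjusted p of 0.959 and a two-sided exact permutation p of 0.0956. Without the 4 arrays that stand apart it was -0.05 (exact permutation p = 0.871, 4 against 6 arrays). In RNA of mixed cells, fewer cells that hold an mRNA and less of it per cell cannot be told apart.

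**Figure D1:**
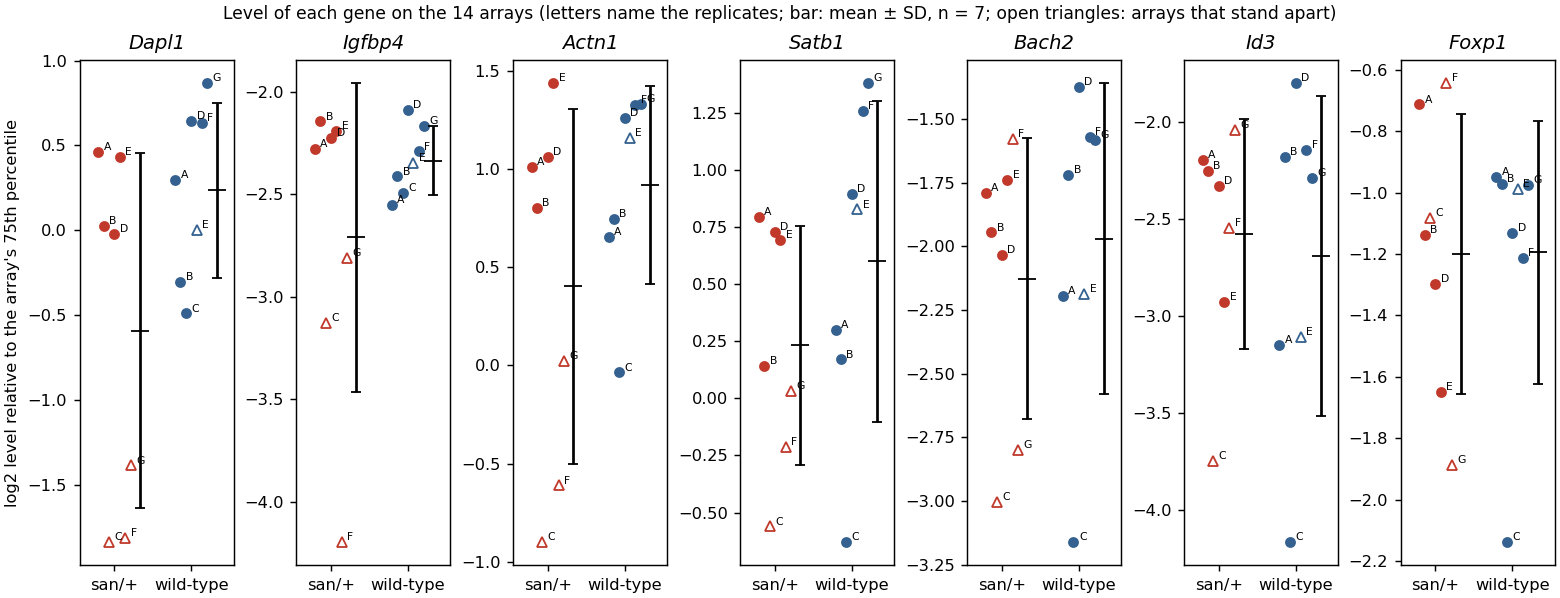
Log2 level of each gene (vertical axis, relative to the 75th percentile of the array) on the 7 Roquin san/+ arrays (red) and the 7 wild-type arrays (blue), with replicate letters, the mean ± SD as black bars and the arrays that stand apart as open triangles; each panel has its own scale. For Dapl1, Igfbp4 and Actn1 the open triangles of Roquin san/+ replicates C, F and G lie below the other Roquin san/+ points, and for Bach2, Id3 and Foxp1 the lowest point is wild-type replicate C.

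Igfbp4, the secreted binding protein, was low on the same Roquin san/+ arrays and nearly level over the wild-type arrays. Its brighter probe, A_52_P257502 (chr11:98913334-98913393), ran from -4.20 through a median of -2.28 to -2.14 in Roquin san/+ and from -2.55 through -2.35 to -2.09 in wild-type. Replicates F, C and G of Roquin san/+ lay at -4.20, -3.13 and -2.81, below all 7 wild-type arrays. The remaining 4 lay between -2.28 and -2.14, within the wild-type range. The SD was 0.75 in Roquin san/+ and 0.17 in wild-type. The difference was -0.37 (95% interval -0.96 to 0.21; limma adjusted p = 0.959; exact permutation p = 0.236). Without Roquin san/+ replicate F it was -0.13, and without the 4 arrays that stand apart it was 0.12 (exact permutation p = 0.238).

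The upstream Igfbp4 probe, A_51_P398971, printed above, gave the same mean difference with another array low. Its levels ran from -5.49 through -3.39 to -2.88 in Roquin san/+ and from -3.93 through -3.43 to -3.05 in wild-type. Replicate E of Roquin san/+ was at -4.51 on this probe and at -2.19 on the brighter probe, where it lay among the wild-type arrays. The difference was -0.37 (95% interval -1.09 to 0.35; limma adjusted p = 0.959). This probe passed the filter through the wild-type arrays alone, as its spot on replicate G of Roquin san/+ was not well above background. The correlation of the 2 probes over the 12 well-placed arrays was 0.69.

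Actn1, the actin cross-linker, followed Dapl1 from array to array. Its tested probe, A_55_P2811143 (chr12:81268736-81268794), ran from -0.90 through 0.80 to 1.44 in Roquin san/+ and from -0.04 through 1.16 to 1.33 in wild-type. Roquin san/+ replicates C and F were below every wild-type array at -0.90 and -0.61, replicate G was at 0.02 beside wild-type replicate C at -0.04, and replicate E was above every wild-type array. The Roquin san/+ mean was 0.40 ± 0.90 (SD, n = 7) and the wild-type mean was 0.92 ± 0.50 (SD, n = 7). The difference was -0.52 (95% interval -1.28 to 0.25; limma adjusted p = 0.959; exact permutation p = 0.211), and 0.20 without the 4 arrays that stand apart (exact permutation p = 0.567).

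The second Actn1 probe, A_51_P347862, was not well above background on either displaced array and was not tested across probes. Its levels ran from -5.32 through -3.97 to -3.51 in Roquin san/+ and from -4.73 through -4.12 to -3.62 in wild-type. The genotypes overlapped, with a difference of -0.21 (exact permutation p = 0.518). Over the 12 well-placed arrays it correlated with the tested probe at 0.89.

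Among the nuclear factors, the chromatin organiser Satb1 had a lower mean in Roquin san/+ on all 4 probes tested, by similar amounts. The probe with the highest mean, A_51_P324228 (chr17:51879137-51879196), ran from -0.56 through 0.14 to 0.79 in Roquin san/+ and from -0.63 through 0.83 to 1.38 in wild-type. All 7 Roquin san/+ arrays lay below the wild-type median, while wild-type replicate C was the lowest of all 14. The difference was -0.37 (95% interval -1.02 to 0.29; limma adjusted p = 0.959; exact permutation p = 0.277). Without wild-type replicate C it was -0.57, and without the 4 arrays that stand apart it was 0.03.

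The other 3 tested Satb1 probes differed by -0.50 (A_65_P16561, chr17:51878314-51878373), -0.33 (A_55_P2719324, chr17:51946454-51946513) and -0.40 (A_55_P2719329, chr17:51963968-51964027). Their exact permutation p-values were 0.231, 0.303 and 0.216. The first 2 correlated with the probe with the highest mean at 0.89 and 0.91 over the 12 well-placed arrays, and A_55_P2719329 correlated with it at 0.29. Its lowest array was Roquin san/+ replicate G at -2.87, and replicates D, A and C of that genotype were its highest Roquin san/+ arrays at -1.09, -1.33 and -1.45. The fifth probe, A_55_P2941303, was at the lowest value of both displaced arrays, so no difference is given for it. It correlated with the probe with the highest mean at 0.23 and with A_55_P2719329 at 0.78.

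Bach2, the repressor of effector genes, differed little between the genotypes. Its probe with the highest mean, A_66_P114768 (chr4:32673009-32673068), ran from -3.00 through -1.95 to -1.58 in Roquin san/+ and from -3.16 through -1.72 to -1.38 in wild-type. Roquin san/+ replicates C and G, at -3.00 and -2.80, and wild-type replicate C, at -3.16, lay apart below the other 11 arrays. Roquin san/+ replicate F, low for Dapl1, Igfbp4 and Actn1, was the highest of its genotype for Bach2 at -1.58. The difference was -0.16 (95% interval -0.78 to 0.46; limma adjusted p = 0.972; exact permutation p = 0.624). The sign turned in 4 of the other settings tried, among them 0.06 without the 4 arrays that stand apart.

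A Bach2 probe upstream of the others, A_65_P05816 (chr4:32352743-32352802), gave a difference of -0.16 as well (95% interval -0.65 to 0.33; limma adjusted p = 0.972). The third probe, A_55_P1956370 (chr4:32588782-32588841), was at the lowest value of the array on Roquin san/+ replicate G, so no difference is given for it. Over the 12 well-placed arrays it correlated with the probe with the highest mean at -0.35.

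Id3, the E-protein inhibitor, was the only member whose mean was higher in Roquin san/+ on the probe that stands for the gene. Its probe, A_51_P380178, ran from -3.75 through -2.33 to -2.04 in Roquin san/+ and from -4.16 through -2.29 to -1.80 in wild-type. Replicate C was the lowest in each genotype, and wild-type replicates A and E followed at -3.15 and -3.11. The difference was 0.11 (95% interval -0.64 to 0.86; limma adjusted p = 0.989; exact permutation p = 0.768). Its sign was negative in 8 of 29 other settings, such as -0.13 without wild-type replicate C and -0.05 without both displaced arrays.

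Foxp1, the forkhead repressor that holds naive T-cells back from activation, differed by -0.03 to 0.01 on its 3 tested probes. The probe with the highest mean, A_55_P2105436 (chr6:98956679-98956738), ran from -1.89 through -1.14 to -0.64 in Roquin san/+ and from -2.14 through -0.99 to -0.95 in wild-type. Wild-type replicate C was the lowest, and the other 6 wild-type arrays lay between -1.21 and -0.95. The difference was -0.01 (95% interval -0.49 to 0.48; limma adjusted p = 0.998; exact permutation p = 0.978), and its sign turned in 13 of 30 other settings. The probes A_55_P2787446 (chr6:98875434-98875493) and A_55_P2721090 (chr6:98902315-98902374) differed by 0.01 (95% interval -0.49 to 0.51) and -0.03 (95% interval -0.50 to 0.43).

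The untested Foxp1 probes lie further upstream. A_55_P2105452, printed above, was not well above background on the displaced arrays, and its levels ran from -5.40 through -3.37 to -3.00 in Roquin san/+ and from -4.18 through -3.27 to -2.97 in wild-type. Roquin san/+ replicate E was at -5.40, as it was also low on the upstream Igfbp4 probe. The difference was -0.27 (exact permutation p = 0.517). A_55_P2105446 (chr6:99102053-99102112) was well above background on 6 arrays, so no difference is given for it. These were Roquin san/+ replicates D and F, at -7.52 and -7.73, and 4 wild-type arrays between -7.69 and -6.97.

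**Figure D2:**
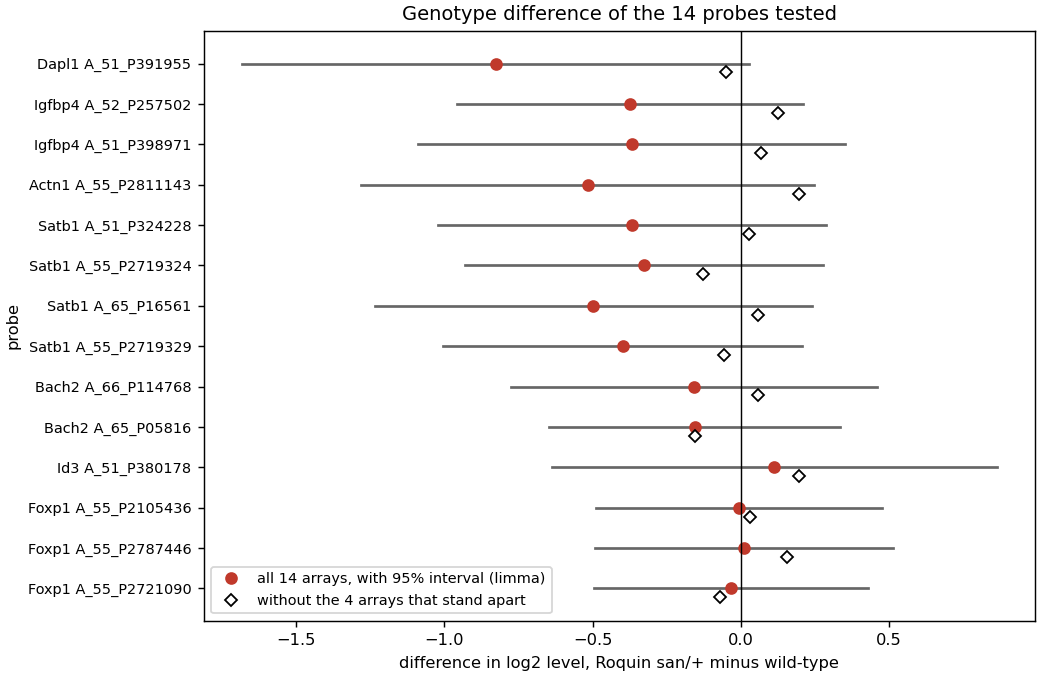
Genotype difference in log2 level (horizontal axis, Roquin san/+ minus wild-type) for the 14 probes tested, 1 line a probe, as red points with 95% limma intervals over all 14 arrays and as open diamonds without the 4 arrays that stand apart. All 14 intervals hold 0, and the diamonds lie to the right of the points for the Dapl1, Igfbp4, Actn1 and Satb1 probes.

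The mean differences of Satb1, Actn1 and Dapl1 had opposite signs on the 2 slides, but no test of the difference between slides passed the adjusted threshold. On slide 1 the difference was -1.28 for Satb1, -1.26 for Actn1 and -1.66 for Dapl1 (exact permutation p = 0.0476, 0.0952 and 0.0952, where 0.0476 is the smallest that 5 against 2 arrays allow). On slide 2 it was 0.40, 0.49 and 0.18 (exact permutation p = 0.571, 0.286 and 0.619). The unadjusted limma p of the interaction between genotype and slide was 0.00987 for Satb1, 0.0228 for Actn1 and 0.0393 for Dapl1, and the adjusted p over all probes was 0.622 for each. Roquin san/+ replicates C, F and G all lay on slide 1, and so did wild-type replicates F and G, the 2 highest wild-type arrays for Satb1 and Actn1.

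For the other 4 members the interaction had an unadjusted p of 0.169 or more. Igfbp4 differed by -0.68 on slide 1 and 0.17 on slide 2, and Bach2 by -0.65 and 0.24. Id3 differed by -0.34 on slide 1 and 0.25 on slide 2, while Foxp1 differed by 0.00 and -0.24. With slide as a block, the differences were -0.74 for Dapl1, -0.39 for Actn1, -0.44 for Satb1, -0.26 for Igfbp4, -0.20 for Bach2, -0.04 for Id3 and -0.12 for Foxp1. None of the 14 member probes had an unadjusted limma p under 0.05 in that fit, against 1.97% of all probes.

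**Figure D3:**
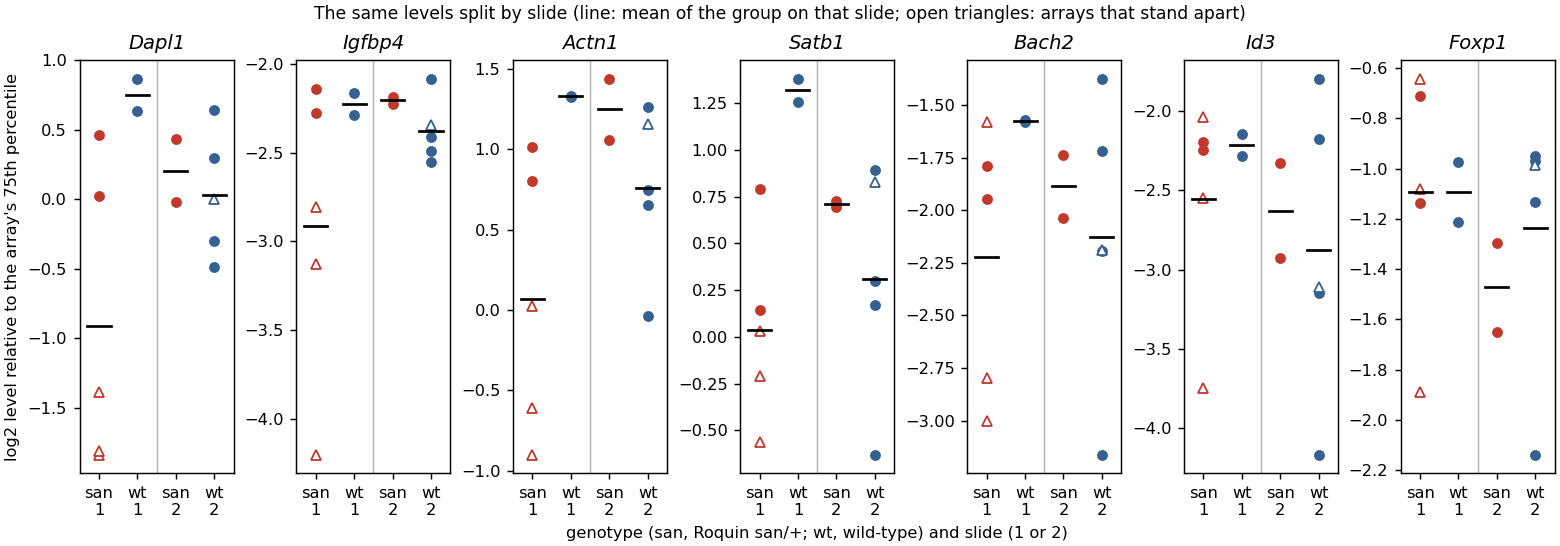
The same log2 levels (vertical axis) split by slide and genotype, with black lines at the mean of each group on each slide and open triangles for the arrays that stand apart. On slide 1 both wild-type points lie above all 5 Roquin san/+ points for Satb1, and on slide 2 the Roquin san/+ mean is the higher one for every gene but Foxp1.

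Signal of other cell types moved with the same arrays. The summed level of 6 myeloid markers (Lyz2, Csf1r, Itgam, Cd68, Fcer1g, Tyrobp) was 3.65 to 35.9 in Roquin san/+ and 1.40 to 9.88 in wild-type, with Roquin san/+ replicates F and C the highest at 35.9 and 30.9. All 6 myeloid genes had a higher mean in Roquin san/+, with a median difference of 0.99, of which 2 had an unadjusted limma p under 0.05 and 0 an adjusted one. All 6 were well above background on each of the 12 well-placed arrays. Cd68, Fcer1g and Tyrobp were not so on wild-type replicate E. These 3 passed the filter through Roquin san/+ alone, the genotype in which they were higher, and Cd68 was 1 of the 2 with an unadjusted limma p under 0.05. The sum of the 6 CD4+ T-cell markers was lowest on Roquin san/+ replicate F at 13.5, on wild-type replicate C at 14.7 and on Roquin san/+ replicate C at 16.3, against 24.6 to 32.5 on the other 11 arrays. Roquin san/+ replicate G, where Dapl1 was also low, had the lowest myeloid sum of its genotype, 3.65, and a T-cell sum of 27.0. The sum of 2 CD8 markers was 2.39 on Roquin san/+ replicate F and 0.0795 to 0.198 on the other Roquin san/+ arrays. The sum of 4 erythroid markers was highest on Roquin san/+ replicate F (57.7) and wild-type replicate C (24.0).

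Over the 14 arrays, Dapl1 correlated with the log2 myeloid sum at -0.82 and Actn1, Satb1 and Igfbp4 at -0.85, -0.80 and -0.78. Id3 and Bach2 correlated with it at -0.49 and -0.40 and Foxp1 at 0.08. The myeloid sum was not alone in this. Dapl1, Actn1, Satb1 and Igfbp4 correlated with the plasma cell sum at -0.79, -0.77, -0.80 and -0.51. With the erythroid sum they were at -0.59, -0.65, -0.67 and -0.68. With the log2 T-cell sum the correlations were 0.86 for Actn1, 0.79 for Satb1 and Igfbp4, 0.75 for Dapl1, 0.66 for Id3, 0.50 for Bach2 and 0.10 for Foxp1. The correlations of Foxp1 and Bach2 changed with the arrays kept. Without the 4 arrays that stand apart the correlation with the T-cell sum was 0.72 for Foxp1, 0.90 for Bach2 and 0.86 for Id3, and 0.68 to 0.87 for the other 4 members. With the myeloid sum it was then -0.44 for Foxp1, -0.75 for Bach2, -0.60 for Id3 and -0.45 for Igfbp4, and -0.88 to -0.72 for Dapl1, Satb1 and Actn1. Wild-type replicate C stays among these 10 arrays, with a T-cell sum of 14.7 against 24.6 to 32.5 on the rest. It was also the lowest of its genotype for 6 of the 7 members. Correlations without that array are not given here, and how far the 10-array values rest on it was not tested. The part of other cells in the members' levels was not tested.

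The members varied together over the 14 arrays, Foxp1 least. Of the 21 pairs among the 7 genes, 20 had a Pearson correlation above 0 over the 14 arrays, from -0.23 to 0.94 with a median of 0.59. The highest were Dapl1 with Actn1 at 0.94, Actn1 with Satb1 at 0.88 and Dapl1 with Igfbp4 at 0.84, and the lowest was Igfbp4 with Foxp1 at -0.23. Taken about the mean of each genotype, the range was -0.25 to 0.94 with a median of 0.57. Over the 10 arrays left without those that stand apart, all 21 pairs were above 0, with a median of 0.71, and Igfbp4 with Dapl1 was at 0.54. Wild-type replicate C, the lowest of its genotype for 6 of the 7 members, stays among these 10 arrays. How far the 10-array correlations rest on that array was not tested. These are descriptions over arrays that share slides, signal strength and cell composition.

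**Figure D4:**
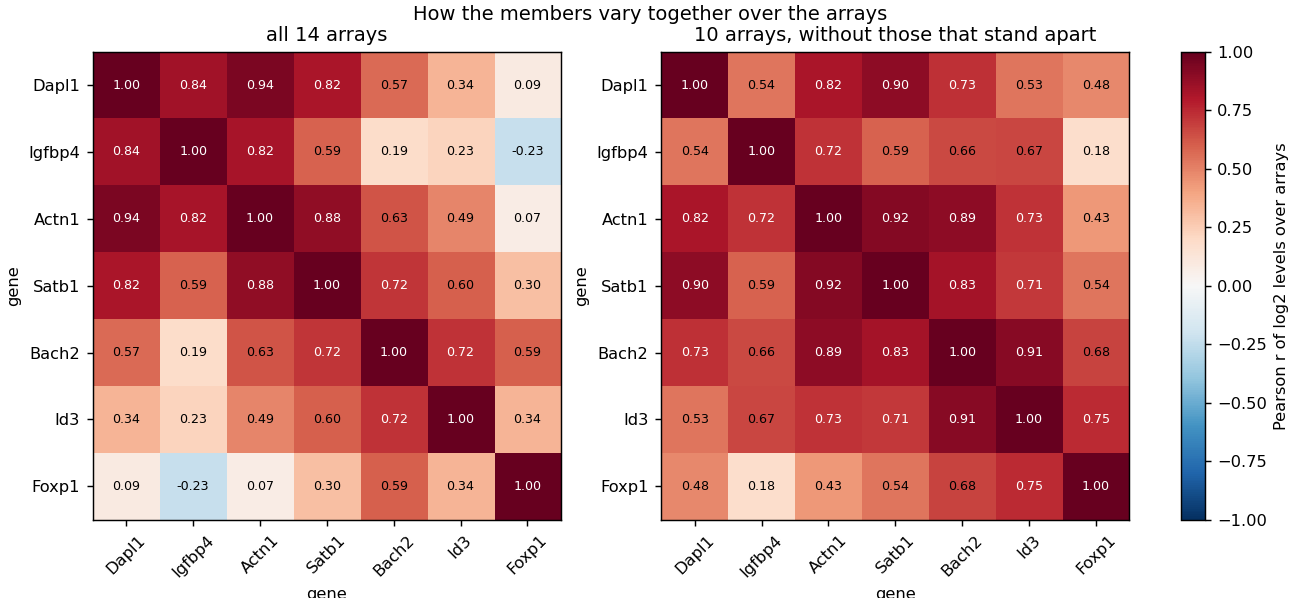
Pearson correlation of log2 levels between each pair of the 7 genes (both axes), over all 14 arrays on the left and over the 10 arrays without those that stand apart on the right, with the colour scale running from -1 to 1. Dapl1, Igfbp4, Actn1 and Satb1 form a block of correlations from 0.59 to 0.94 on the left, and Bach2 with Id3 goes from 0.72 on the left to 0.91 on the right. The right panel keeps wild-type replicate C.

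Among 10105 other genes tested, those most like each member over the 14 arrays had correlations of 0.88 to 0.97. For Dapl1 they were Pdlim4 (0.96), Gm34006 (0.95) and Afp (0.94), and for Actn1 they were Gpr146 (0.97), Gm34006 (0.97) and Galnt6 (0.96). Gpr146 was also the second for Satb1 (0.96), after Itgb3 (0.97) and ahead of A930005H10Rik (0.95). Igfbp4 was followed most closely by Bambi-ps1 (0.92), Ramp3 (0.91) and Kcnn4 (0.91). For Bach2 they were Nedd4l (0.95), Cpm (0.95) and Sh3pxd2a (0.94), for Id3 H2-D1 (0.96), Tgfbr2 (0.96) and Akap13 (0.96), and for Foxp1 Pag1 (0.94), A230048O21Rik (0.90) and Cic (0.88). No other gene was shared between these lists.

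For Dapl1, Igfbp4 and Actn1, the 3 members that encode no nuclear factor, the 250 bases before the start sites are shown. They are from RefSeq on build GRCm38.p6, on the strand of the gene. Satb1, not shown, correlated with Dapl1 and Actn1 at 0.82 and 0.88 over the 14 arrays, and Igfbp4 at 0.84 and 0.82. Shared control of these genes was not tested. All 7 genes matched the RefSeq table, with 13 entries in all, of which 5 were for Satb1 and 3 for Foxp1, and some of the Satb1 windows overlap.
Dapl1 (chr2:59484403-59484652): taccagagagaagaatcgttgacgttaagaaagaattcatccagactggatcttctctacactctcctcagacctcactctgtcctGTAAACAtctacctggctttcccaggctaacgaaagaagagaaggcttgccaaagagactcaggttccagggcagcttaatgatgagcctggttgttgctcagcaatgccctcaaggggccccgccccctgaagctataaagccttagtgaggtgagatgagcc
Igfbp4 (chr11:99040994-99041243): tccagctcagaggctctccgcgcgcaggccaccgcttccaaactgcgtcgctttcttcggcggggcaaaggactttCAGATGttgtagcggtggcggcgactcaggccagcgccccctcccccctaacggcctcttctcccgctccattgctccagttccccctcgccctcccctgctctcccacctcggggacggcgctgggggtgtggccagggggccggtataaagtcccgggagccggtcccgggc
Actn1 (chr12:80260364-80260613): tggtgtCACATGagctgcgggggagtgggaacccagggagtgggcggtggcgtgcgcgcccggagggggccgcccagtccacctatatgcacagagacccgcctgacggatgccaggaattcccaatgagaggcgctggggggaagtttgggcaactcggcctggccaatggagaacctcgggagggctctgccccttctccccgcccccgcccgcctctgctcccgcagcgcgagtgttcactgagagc
Capitals mark matches, on either strand, to 6 motifs: forkhead (GTAAACA), TCF/LEF (CTTTGAT), KLF (CCACCC), ETS (CCGGAAG), BACH/AP-1 (TGAGTCA) and the E-box (CANNTG). Dapl1 held a forkhead match 164 bases before its start, a motif found in 3.17% of all 32851 windows of this length. Igfbp4 and Actn1 each held 1 E-box, found in 66.2% of all windows. Over the 13 entries of the members the KLF letters were in 6 (28.1% of all windows), the E-box in 7, the ETS letters in 1, at Bach2 (6.91%), and the TCF/LEF and BACH/AP-1 letters in 0 (3.21% and 4.46%). No matches overlapped in the 3 windows shown.

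Most of the other naive T-cell genes had a lower mean in Roquin san/+, none past the test. Of 7 listed (Ccr7, Lef1, Tcf7, Klf2, Il7r, S1pr1, Foxo1), 6 were tested, 5 were lower in Roquin san/+ and 1 was higher, with a median of -0.24, and 0 had an adjusted or an unadjusted limma p under 0.05. The largest were Lef1, a TCF/LEF transcription factor of naive T-cells, at -0.58 (95% interval -1.18 to 0.01; limma adjusted p = 0.959), and Il7r, the receptor chain for the survival cytokine interleukin-7, at -0.34 (95% interval -0.92 to 0.25; limma adjusted p = 0.959). Without the 4 arrays, Lef1 was at -0.01, Il7r at 0.08 and Foxo1, the 1 gene that was higher before, at 0.42. In all 5 of the 6 were then higher, with a median of 0.09. Of 10 quiescence genes (Tob1, Btg1, Btg2, Slfn2, Cdkn1b, Tsc1, Txnip, Foxo3, Foxj1, Klf3) 8 were tested, 4 were lower and 4 higher, with a median of -0.01 and 0 past the adjusted or the unadjusted limma threshold, and the largest were Foxo3 at -0.17 and Tsc1 at -0.09.

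The genes that oppose or partner with the members lay mostly higher in Roquin san/+. All 10 listed (Prdm1, Id2, Batf, Irf4, Maf, Tcf3, Tcf4, Tcf12, Bcl6, Tbx21) were tested and 8 were higher, with a median of 0.40 and 0 past the adjusted threshold. The largest were Irf4 at 0.95 (95% interval 0.34 to 1.57; limma adjusted p = 0.959) and Batf at 0.75 (95% interval 0.07 to 1.44), factors that act together in effector T-cells. With Prdm1, which Bach2 represses and whose product drives effector fates, at 0.66, they were the 3 with an unadjusted limma p under 0.05. Prdm1 is named because of its value. The Irf4 probe was well above background on 13 of the 14 arrays, so it passed the filter through 1 genotype alone. So did the probes of Tcf12, Foxo3 and Actn2. Which genotype it was is not given here, so the filter could have favoured the direction of these differences. The E-protein genes Tcf3, Tcf4 and Tcf12, whose products Id3 binds, differed by -0.18, 0.49 and 0.19. Without the 4 arrays that stand apart Irf4 was at 0.49, Prdm1 at 0.34 and Batf, then the largest, at 0.93, and the median of the list was 0.24.

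All 8 activated or memory genes (Cd44, Cd69, Icos, Pdcd1, Tnfrsf4, Il2ra, Ccl5, Cxcr3) had a higher mean in Roquin san/+, with a median of 0.56, and 0 passed the adjusted threshold. The largest were the chemokine gene Ccl5 at 1.19 (95% interval -0.01 to 2.40) and Pdcd1, the gene of the inhibitory receptor PD-1, at 0.84 (95% interval -0.15 to 1.82). Cxcr3 at 0.71 and Icos at 0.69 were the 2 with an unadjusted limma p under 0.05, and both are named because of their values. Without the 4 arrays 7 of the 8 were higher, with a median of 0.61, while the median of the 7 members was 0.06. On the same 10 arrays all 6 myeloid markers stayed higher in Roquin san/+, with a median of 0.48, and all 6 CD4+ T-cell markers were higher, with a median of 0.28 against -0.08 over the 14 arrays. The part of other cells in these list differences was not tested. Of 13 relatives of the members 5 were tested, 3 were higher, and the largest were Actn2 at -0.56 and Foxp3 at 0.45. Rc3h1 differed by -0.07 (95% interval -0.39 to 0.25).

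**Figure D5:**
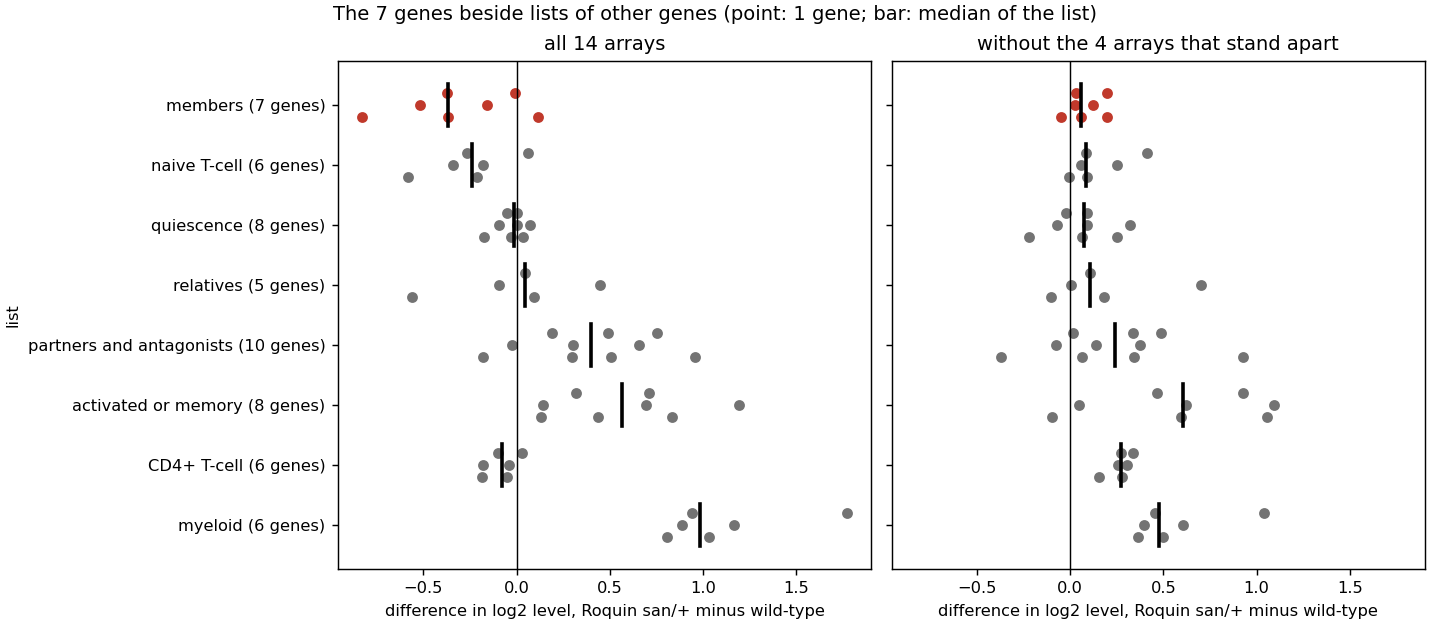
Genotype difference in log2 level (horizontal axis, Roquin san/+ minus wild-type) of the 7 members (red) and of the tested genes of other lists (grey), 1 point a gene and a bar at each median, over all 14 arrays on the left and without the 4 arrays that stand apart on the right. The median of the members goes from -0.37 to 0.06 between the panels, and that of the activated or memory genes from 0.56 to 0.61.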

How the data were processed

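The authors deposited the scanner output of 14 one-colour Agilent arrays as spot intensities (Agilent Feature Extraction 10.5.1.1, per the labels), with a background-subtracted processed signal, and a table of log2 values whose making is not given in the sources used here. Grid shifts of up to 6 rows or columns were searched, and the 2 displaced arrays were moved by 2 rows; their detection calls could not be repaired. Outlier spots were left out, spots of a probe averaged on the log2 scale, and each array's 75th percentile subtracted, taken over the 10320 probes that every array detected well above background. A probe entered the test when all 7 arrays of at least 1 genotype detected it well above background, and limma 3.58.1 was run in R 4.3.3 (Benjamini-Hochberg, threshold 0.05); 1907 of the 12864 passed through Roquin san/+ alone and 637 through wild-type alone. The probe with the highest mean stands for a gene. Exact permutations covered 3432 arrangements. The fit was checked on simulated data. No column of unmatched samples was found. The members and the lists were chosen with earlier results of these data known. 1 gene of the lists is not reported here and enters no list count or median. All probes of the members were named, with the 2 largest differences of each list, Rc3h1 and the 3 genes most like each member. Taken about the mean of each genotype, the 2 arrays of a letter correlated at -0.47 to 0.41 over the tested probes. Arrays of different letters were not compared, so whether the letters pair arrays was not tested. Alternatives covered background correction, scaling, filter, slide, displaced arrays, the authors' log2 values, the replicate block and leaving out each array. Leaving out the arrays that stand apart, normexp without both displaced arrays, the filter in both genotypes, and the counts of lower and of unadjusted probes were chosen after seeing the data.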

Additional observations from a re-analysis of the deposited data

Results flagged for a closer look

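Wild-type replicate C lay far below the other 6 wild-type arrays on 3 of the 14 tested member probes, by a gap wider than Dixon's 95% limit for the share of the group's range. On Foxp1 A_55_P2105436 it was at -2.14, with the next array at -1.21, and on Foxp1 A_55_P2721090 it was at -3.02, with the next at -1.93. On Satb1 A_65_P16561 it was at -1.15, with the next at -0.13. The test was made for 28 groups of 7 arrays, and chance flags about 1 group in 20. The same array had the lowest summed CD4+ T-cell markers of its genotype, 14.7, and the highest summed myeloid and erythroid markers, 9.88 and 24.0, and the part of these in its low values was not tested.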

How the results depend on the processing

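No member probe had an adjusted limma p under 0.05 in any of the 29 other settings, and no gene's difference had one (lowest 0.472). The count at an unadjusted limma p under 0.05 was 4 on slide 1 alone (5.18% of all probes) and 1 with the 75th percentile over all probes (4.35%). When each array was left out it was 0 to 4 (2.52% to 6.13% of all probes). Under the replicate block, which pairs arrays of 1 letter, it was 1 (Satb1 A_65_P16561), against 4.85% of all probes. Each letter holds 1 array of each genotype, so this block leaves every mean difference as it was and cannot test its sign. The count of lower member probes was 4 of 14 on slide 2 alone (48.1% of all probes), 2 of 5 with probe names as deposited (48.3%), 5 of 14 without the arrays that stand apart (46.4%) and 9 of 18 with normexp and both displaced arrays left out (21.2%). On slide 2 alone the difference reversed to 0.17 for Igfbp4, 0.18 for Dapl1, 0.40 for Satb1, 0.24 for Bach2 and 0.49 for Actn1. Without the arrays that stand apart it reversed to 0.12 for Igfbp4, 0.028 for Satb1, 0.057 for Bach2, 0.20 for Actn1 and 0.031 for Foxp1. With probe names as deposited it was 0.065 for Bach2, -0.15 for Id3 and 0.20 for Foxp1, and with normexp and both displaced arrays left out 0.065 for Bach2 and 0.14 for Foxp1. Without both displaced arrays it was -0.045 for Id3 and 0.14 for Foxp1, and on slide 1 alone -0.34 for Id3 and 0.0011 for Foxp1. Id3 also reversed to -0.060 with quantile normalization, -0.059 with the 75th percentile over all probes, -0.044 with slide as a block and -0.10 with the authors' log2 values. Leaving out each array moved Id3 from -0.13 to 0.31 and Foxp1 from -0.16 to 0.11, and reversed no other member: Dapl1 ran from -1.003 to -0.62, Igfbp4 from -0.47 to -0.13, Actn1 from -0.69 to -0.30, Satb1 from -0.57 to -0.24 and Bach2 from -0.36 to -0.01. The mean of a gene's probes kept the sign of the 4 genes with several tested probes. The causes were not tested. Of the 5 member probes that missed the filter, 4 passed it over the 12 well-placed arrays. Precision is limited by how many arrays there are.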
